A study of Oncorhynchus mykiss with 42 samples.

Results

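Among 8175 trout cDNA clones with values, 43 gave culture responses of opposite direction in testes of the 2 stages studied. Of these, 23 were lower after culture than before it in stage III and higher in stage I-II, and are called the III-down clones here. The other 20 were higher after culture in stage III and lower in stage I-II, and are called the III-up clones. They were chosen on the deposited log2 values: the mean of the control cultures minus the mean of the uncultured testes (Ctrl minus T0) had to be 0.4 or more in one stage and -0.4 or less in the other. The mean over the stages of FSH minus Ctrl and of LH minus Ctrl also had to lie between -0.25 and 0.25. Without that last bound 26 and 34 clones met the rule. Ctrl, T0 and both hormone responses therefore chose the members, and values from those contrasts are given as a description without a test.

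Whole testes of rainbow trout (Oncorhynchus mykiss) from an all-male population were studied at developmental stage III and stage I-II. Chopped fragments were kept for 96 h at 12 °C on membrane inserts over 300 µL of modified L15 medium, renewed at 48 h, with purified salmonid FSH at 500 ng/mL, with LH at 500 ng/mL or without hormone (Ctrl), and uncultured testis (T0, 0 h) was the starting point. Each stage had 6 FSH, 6 LH, 6 Ctrl and 3 T0 arrays, 42 nylon membranes in all, each hybridised with radiolabelled cDNA from 5 µg of RNA. The labels describe randomly distributed fragments and tie no sample to a fish, so the replicates may be technical, the p-values measure the spread between these samples, and stage and fish cannot be told apart.

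In the fish testis, germ cells develop in cysts enclosed by Sertoli cells, while Leydig cells between the tubules make steroids. FSH acts mainly on Sertoli cells and LH on Leydig cells, and later stages of maturation hold more advanced germ cells than earlier ones. Explant culture keeps fragments of this mixed tissue outside the fish, so RNA levels can move with the cells that survive as well as with what each cell makes. In such bulk samples, fewer cells of a type and less RNA per cell cannot be told apart. The files pair no clone with a gene, so clones are named by their IDs, no gene list could be applied, and the tissue could not be checked against cell markers.

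The III-down clones were lower in stage III Ctrl cultures than at T0 by a median of 0.51 on the log2 scale (Ctrl minus T0, -0.98 to -0.40), and higher in stage I-II by a median of 0.56 (0.41 to 0.92). For the III-up clones the median Ctrl minus T0 was 0.50 in stage III (0.40 to 1.13) and -0.59 in stage I-II (-1.31 to -0.41). Over all clones both medians were -0.04. In stage III, 18.3% of all clones had a Ctrl minus T0 of 0.4 or more and 19.8% of -0.4 or less, and in stage I-II the shares were 16.7% and 17.0%. Clones past 0.4 in opposite directions were thus few beside those past it in 1 stage. Close to the threshold, the III-down clones just inside it had Ctrl minus T0 of -0.40 and -0.41 in stage III, and those just outside had -0.397 and -0.39. The III-up clones just inside had 0.402 and 0.403 in stage III, and those just outside had 0.395 and 0.393.

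**Figure D1:**
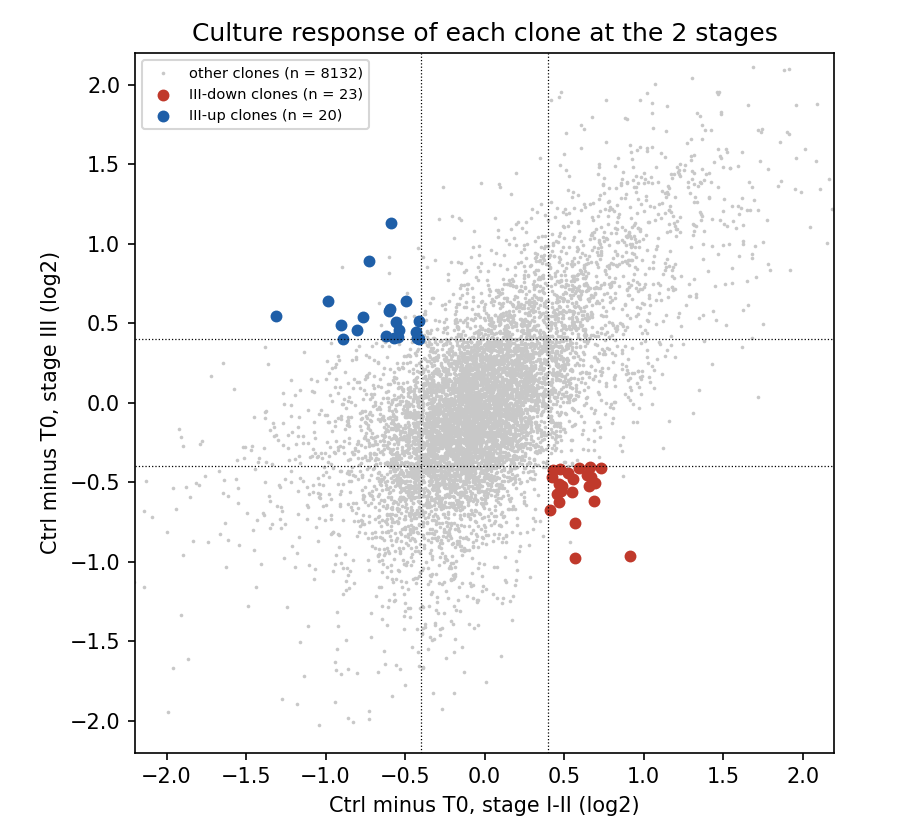
Ctrl minus T0 (log2) of each clone in stage I-II (x axis) and stage III (y axis), with the 23 III-down clones in red, the 20 III-up clones in blue and the other 8132 clones in grey. Dotted lines mark 0.4 and -0.4. Most grey points run from lower left to upper right, the coloured clones lie in the other corners near the threshold, and 70 clones lie outside the axes.

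In most members the stages lay far apart in uncultured testis, and about as close in Ctrl cultures as in all clones. Some clones ran otherwise. In Ctrl cultures the difference was under 0.25 in size in 17 of 23 III-down and 12 of 20 III-up clones, beside 68.8% of all clones. At T0 the stage III minus stage I-II difference of the III-down clones had a median of 1.07 (0.12 to 2.13) and was positive in 23 of 23. In the III-up clones the T0 difference had a median of -1.23 (-2.01 to -0.77). In Ctrl cultures the medians of the same difference were -0.05 and -0.05. Its median size in Ctrl cultures was 0.17 in the III-down clones and 0.18 in the III-up clones, beside 0.16 for all clones. The III-down clone 1rt128j01_b_e01 ran the other way, with a difference of -1.02 in Ctrl cultures and 0.12 at T0, and tcay0039.l.20 had 1.13 in Ctrl cultures and 2.13 at T0. The rule bounds the T0 difference minus the Ctrl difference, which had to reach 0.8 in size, but not how that amount is shared between them. Both differences come from arrays that chose the members and are a description.

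Array by array, the T0 values of the stages separated for most members. The 3 stage III T0 arrays did not overlap the 3 stage I-II T0 arrays in 21 of 23 III-down clones and in 18 of 20 III-up clones, beside 37.3% of all clones. In Ctrl cultures the stages did not overlap in 2 III-down clones and in 0 III-up clones, beside 6.25% of all clones. Ctrl against T0 separated 5 of the 23 III-down clones in stage III, where 26.4% of all clones separated, and 17 of them in stage I-II, where 29.9% did. Of the 20 III-up clones, 11 separated in stage III and 14 in stage I-II. These separations come from the contrasts that chose the members, and nothing is read from them.

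The median over the III-down clones of their deviation from each clone's mean was 0.474, 0.504 and 0.633 on the stage III T0 arrays, against -0.517, -0.574 and -0.595 on the stage I-II T0 arrays. For the III-up clones these medians were -0.436, -0.452 and -0.682 in stage III T0, against 0.648, 0.654 and 0.712 in stage I-II T0. On the 36 cultured arrays the medians lay between -0.279 and 0.32 for the III-down clones, and between -0.223 and 0.242 for the III-up clones. The rule chose the members on these T0 and Ctrl arrays, so their distance from 0 is a description. Which clones met the rule moved with single T0 and Ctrl arrays. Without stage III T0 replicate 6, 16 of the 23 III-down and 12 of the 20 III-up clones still met it. Without stage I-II T0 replicate 2, 21 and 15 did, and without stage III Ctrl replicate 57, 16 and 17 did.

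**Figure D2:**
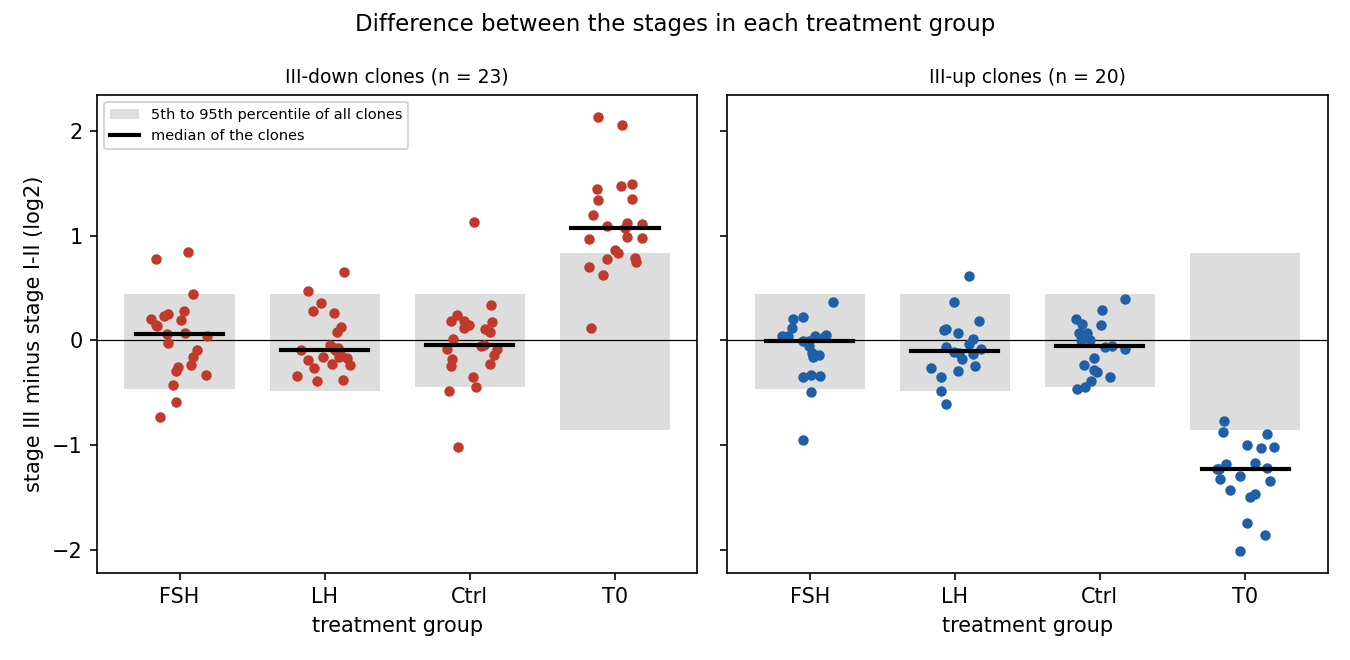
Stage III minus stage I-II (log2) of each III-down clone (left, n = 23) and III-up clone (right, n = 20) in the FSH, LH and Ctrl cultures and at T0. Points are clones, black lines their medians and grey boxes the 5th to 95th percentile of all 8175 clones. The T0 medians are 1.07 and -1.23, and the medians of the cultures lie between -0.10 and 0.06.

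The clone with the widest spread of responses among the III-down clones was tcbk0019.g.05, with a culture response of -0.97 in stage III and 0.92 in stage I-II. It had 7.24 ± 0.41 in stage III Ctrl cultures (SD, n = 6; 6.59, 7.24 and 7.79 as lowest, median and highest) and 8.09, 8.28 and 8.24 at stage III T0. In stage I-II it had 7.07 ± 0.18 in Ctrl cultures (SD, n = 6; 6.89, 7.04 and 7.38) and 6.32, 5.85 and 6.28 at T0. Every stage III T0 array lay above every stage III Ctrl array, every stage I-II T0 array lay below every stage I-II Ctrl array, and the Ctrl cultures of the stages overlapped. The spot was above background on only 1 of the 3 stage I-II T0 arrays, so its lowest values are near the limit of measurement. It also touched a brighter spot, by the measure given below for the calls. The part of that brighter spot in the responses of this clone was not tested.

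The next, tcbk0033.n.07, had 8.75 ± 0.36 in stage III Ctrl cultures (SD, n = 6; 8.10, 8.85 and 9.06) and 9.67, 9.97 and 9.53 at stage III T0. In stage I-II it had 8.83 ± 0.06 in Ctrl cultures (SD, n = 6; 8.75, 8.82 and 8.91) and 8.61, 8.05 and 8.10 at T0. Ctrl and T0 did not overlap in either stage, and this clone was above background on all 42 arrays. With FSH it averaged 9.14 ± 0.22 in stage III cultures (SD, n = 6) and 8.91 ± 0.26 in stage I-II cultures (SD, n = 6). With LH the order of the stages was the other one, 8.68 ± 0.25 in stage III (SD, n = 6) and 8.85 ± 0.24 in stage I-II (SD, n = 6).

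Among the III-up clones, 1rt101f15_b_c08 had the widest spread of responses, and it rested on 1 array. Its stage I-II Ctrl cultures had 7.23 ± 0.16 (SD, n = 6; 7.04, 7.21 and 7.45), and the stage I-II T0 arrays 7.07, 11.88 and 6.67. Without T0 replicate 2, which held 11.88, the stage I-II Ctrl minus T0 became 0.36 in place of -1.31, which turns its sign. In stage III it had 7.62 ± 0.26 in Ctrl cultures (SD, n = 6; 7.20, 7.68 and 7.87) and 7.03, 7.23 and 6.96 at T0, and the highest T0 array overlapped the lowest Ctrl array. The spot of 1rt101f15_b_c08 touched a brighter one too, by the measure given below for the calls, and its part in the responses was not tested.

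For tcbk0016.j.18 the stage III side was the clearer one. Its stage III Ctrl cultures had 8.70 ± 0.14 (SD, n = 6; 8.54, 8.69 and 8.91), against 7.77, 7.72 and 7.22 at stage III T0, with no overlap. In stage I-II it had 8.41 ± 0.22 in Ctrl cultures (SD, n = 6; 8.22, 8.33 and 8.80) and 8.38, 9.86 and 8.76 at T0, which overlapped. Here too T0 replicate 2 was the highest, and without it the stage I-II Ctrl minus T0 was -0.16 in place of -0.59. On the scanner's image signal, with every array kept, the stage I-II Ctrl minus T0 of tcbk0016.j.18 was 0.017, so its fall was absent there.

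**Figure D3:**
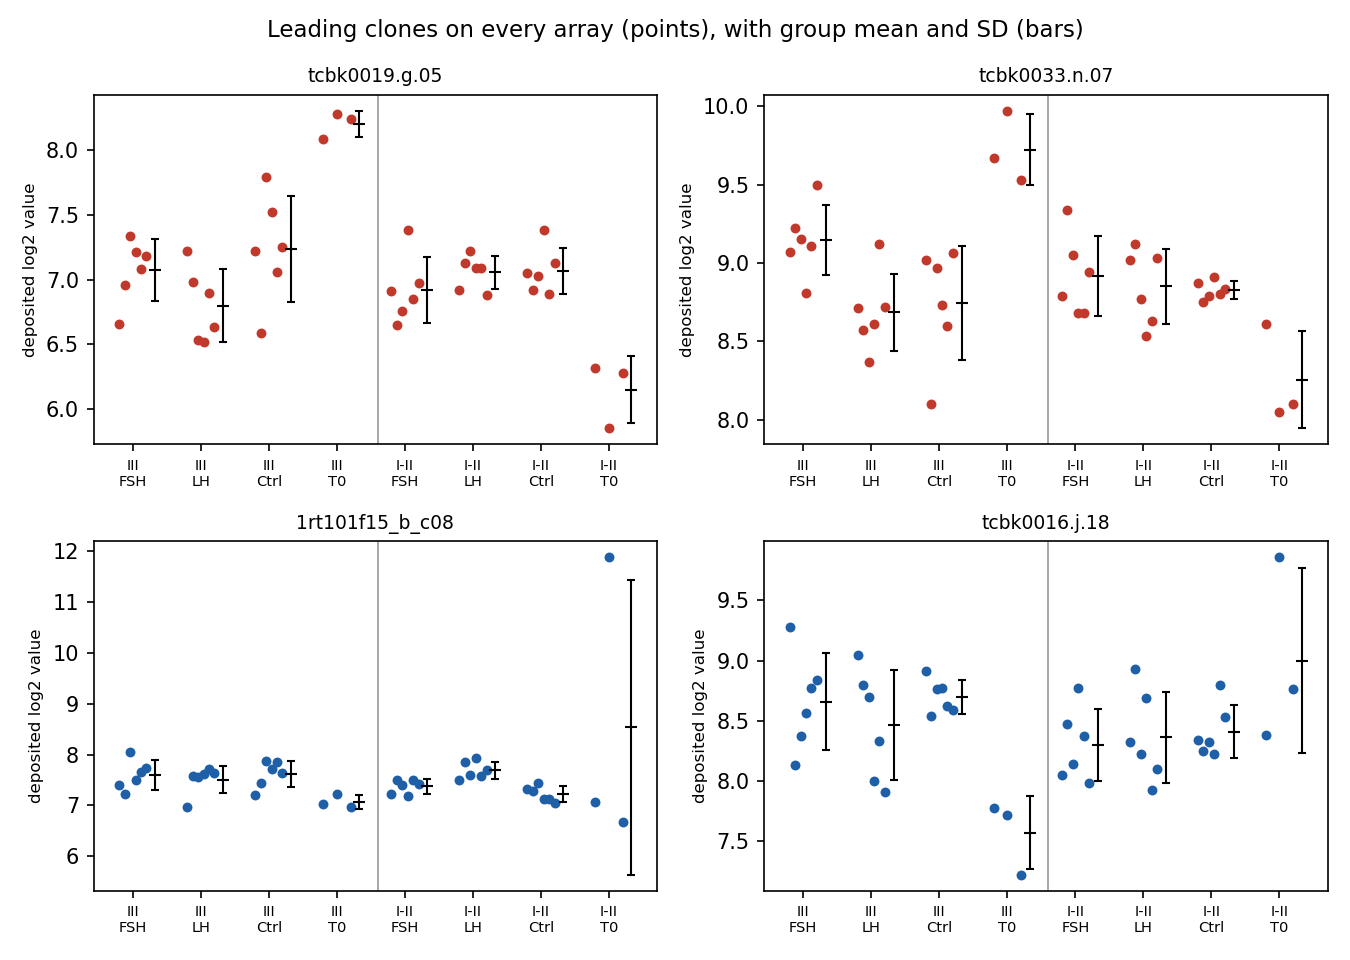
Deposited log2 values of the clones with the widest spread of culture responses on every array, stage III left and stage I-II right of the grey line, FSH, LH, Ctrl and T0 in each. Points are arrays, bars group mean and SD; the top row holds 2 III-down clones and the bottom row 2 III-up clones. The stage I-II T0 value of 11.88 in 1rt101f15_b_c08 stands alone.

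Leaving out 1 T0 array at a time turned the sign of a culture response in 1 of 23 III-down clones and in 2 of 20 III-up clones, 1rt101f15_b_c08 among them. The other 2 were 1rt31e04_c_c02, a III-down clone with 7.85 on stage III T0 replicate 5 beside 4.76 and 5.26 on the others, and tcba0015.k.19, a III-up clone with 8.63 on stage I-II T0 replicate 3 beside 5.09 and 5.42. Both were picked out after their values were seen. In 19 III-down clones and 17 III-up clones both responses kept their direction at a size of at least 0.2 whichever T0 array was left out. The rule had already chosen the members for large responses on these same Ctrl and T0 arrays. No share of other clones is given, so nothing is read from these counts.

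Both hormone cultures stood on the same side of T0 as the Ctrl cultures in nearly all members. In stage III, FSH minus T0 was below 0 in 23 of 23 III-down clones (median -0.48) and above 0 in 20 of 20 III-up clones (median 0.47). LH minus T0 in stage III was below 0 in 22 of 23 III-down clones and above 0 in 20 of 20 III-up clones. In stage I-II all 23 III-down clones were above 0 and all 20 III-up clones below 0 with either hormone. These contrasts share their T0 arrays with the ones that chose the members, and the hormone bound limits them, so they are no independent repeat of the response.

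The difference between the stages in the FSH cultures and in the LH cultures uses neither Ctrl nor T0 arrays and could be tested. The FSH and LH arrays did enter the rule, through bounds on means over the stages and not on the difference between them. The test itself is not free of the Ctrl and T0 arrays, since the SE and p-value use a spread per clone taken over all groups. For the III-up clone 1rt101f15_b_c08 the SE was 0.376. Its SD was 2.90 at stage I-II T0 and 0.14 to 0.29 in the FSH and LH cultures. Stage III and stage I-II differed with FSH in 7 of 43 members, beside 11.1% of all 8175 clones (limma, Benjamini-Hochberg adjusted p under 0.05). Of the 7 calls, 3 were higher in stage III, all of them III-down clones, beside 5.6% of all clones. The 4 lower calls were 2 III-down and 2 III-up clones, beside 5.52% of all clones. Of these, the III-down clone 1rt37p04_d_h02 had a limma adjusted p of 0.049. It was above background on 0 of 6 stage III and 1 of 6 stage I-II FSH arrays. Its difference is thus close to the limit of measurement. A spot over 4 times brighter touched 2 of the 7 calls, the III-down clones tcba0018.e.18 and 1rt128j01_b_e01, and not the other 5. With LH, 3 of 43 members were called, beside 11.6% of all clones. Among them 1 III-down clone was higher in stage III, beside 4.92% of all clones, and 2 III-up clones were lower, beside 6.64%. Of the 3 members called with LH, only the III-up clone tcac0006.d.07 touched a spot over 4 times brighter. With only the compared groups in the fit, 6 members were called with FSH and 4 with LH. The share of all clones called in that fit is not given, so nothing is read from these counts. With equal block medians (the median of every block of spots made equal on each array, a setting chosen after seeing the data) 12 members were called with FSH and 11 with LH, beside 18.3% and 19.4% of all clones. The stage arrays did not overlap in 2 III-down clones and 1 III-up clone with FSH, beside 5.44% of all clones, and in 1 and 1 with LH, beside 5.75%.

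The median stage III minus stage I-II difference of the III-down clones was 0.06 with FSH and -0.09 with LH, and that of the III-up clones was -0.00 and -0.10. In size the difference was below its own T0 value in 22 of 23 III-down clones with FSH and in 22 of 23 with LH, and in 20 of 20 III-up clones with either. Over all clones 70.2% and 67.9% had the smaller difference in culture. The T0 difference was large in these clones through the rule, so nothing is read from that count. Differences under 0.25 in size were found in 12 III-down and 14 III-up clones with FSH, beside 68.4% of all clones, and in 14 and 13 with LH, beside 68.5%.

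A minority of members differed between the stages in the hormone cultures. The III-down clone tcay0039.l.20 had 7.33, 7.49 and 7.87 (lowest, median and highest of 6) in stage III FSH cultures, against 6.37, 6.72 and 7.06 in stage I-II FSH cultures, with no overlap. It was higher in stage III by 0.85 ± 0.16 with FSH (log2, SE; limma adjusted p = 0.00011) and by 0.65 ± 0.16 with LH (adjusted p = 0.0032), above the stage I-II mean on 6 of 6 stage III arrays each time. Its LH cultures had 6.86, 7.39 and 7.81 in stage III, against 6.19, 6.79 and 7.23 in stage I-II, which overlapped. This clone was not above background on any stage I-II T0 array, so its T0 difference of 2.13, the highest among the III-down clones, is taken against spots with only an upper bound.

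The III-down clone tcba0018.e.18 had 7.83, 8.17 and 8.54 in stage III FSH cultures, against 7.32, 7.38 and 7.55 in stage I-II FSH cultures. The arrays did not overlap, and the difference was 0.77 ± 0.12 (log2, SE; limma adjusted p = 8.5e-06). With LH it had 7.54, 7.69 and 8.15 in stage III, against 7.42, 7.70 and 7.82 in stage I-II, which overlapped in part. The spot of this clone touched a brighter one, by the measure given above for the calls. The part of that brighter spot in the difference was not tested.

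The III-down clone 1rt128j01_b_e01 was lower in stage III in culture, with 8.93, 9.47 and 9.69 in stage III FSH cultures, against 9.68, 10.11 and 10.54 in stage I-II FSH cultures. Its difference between the stages was -0.73 ± 0.14 (log2, SE; limma adjusted p = 0.00021), with all 6 stage III arrays below the stage I-II mean, and the arrays overlapped between 9.68 and 9.69. Its Ctrl cultures had 8.77, 9.13 and 9.22 in stage III, against 9.78, 10.12 and 10.39 in stage I-II, with no overlap. At T0 it had 9.50, 9.38 and 9.78 in stage III, against 9.26, 9.79 and 9.26 in stage I-II, which overlapped. The Ctrl and T0 arrays chose the members, so their values are a description. With LH it had 9.45, 9.66 and 9.77 in stage III, against 9.79, 10.015 and 10.33 in stage I-II. Those LH arrays did not overlap, but the difference of -0.39 was not called (limma adjusted p = 0.063). The spot of this clone touched a brighter one, by the measure given above for the calls.

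The III-up clone tcay0024.h.23 kept the direction of its T0 difference with both hormones. It had 9.08, 9.44 and 9.73 in stage III FSH cultures, against 10.14, 10.36 and 10.82 in stage I-II FSH cultures, with no overlap and a difference of -0.95 ± 0.15 (log2, SE; limma adjusted p = 5.2e-06). With LH it had 9.43, 9.75 and 10.10 in stage III, against 9.93, 10.28 and 10.39 in stage I-II, and the difference was -0.49 ± 0.15 (limma adjusted p = 0.021), with overlap. The LH call was lost when stage III LH replicate 70 (limma adjusted p = 0.068) or stage I-II LH replicate 32 (limma adjusted p = 0.052) was left out. At T0 it had 8.85, 9.05 and 8.78 in stage III, against 11.28, 10.51 and 10.91 in stage I-II.

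The III-up clone tcac0006.d.07 had 7.43, 7.53 and 7.77 in stage III LH cultures, against 7.83, 8.30 and 8.39 in stage I-II LH cultures. The arrays did not overlap, and the stage III minus stage I-II difference was -0.61 ± 0.12 (log2, SE; limma adjusted p = 0.00026). With FSH it had 7.49, 7.72 and 8.17 in stage III, against 7.91, 8.04 and 8.26 in stage I-II. Those arrays overlapped, and the FSH difference of -0.34, of the same direction, was narrowly not called (limma adjusted p = 0.058). The spot of this clone touched a brighter one, by the measure given above for the calls. Its matched scanner position was also not the nearest by profile.

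FSH and LH cultures of a stage were set against each other as a description, since the rule bounds the mean of this difference over the stages. In stage III, FSH minus LH ranged from -0.38 to 0.52 over the 43 members, and 0 were called, beside 0.183% of all clones (limma, lowest adjusted p of a member = 0.0965; 3 members had an unadjusted p under 0.05). Without stage III LH replicate 67 there was 1 call, and with equal block medians there were 3, beside 0.893% of all clones. In stage I-II it ranged from -0.69 to 0.54, and 0 were called, beside 0.0612% (lowest adjusted p = 0.235; 7 members had an unadjusted p under 0.05). Nothing is read from these counts. The change of FSH minus LH between the stages is not bounded by the rule, and it gave 0 calls among the members and 0.0% of all clones (lowest adjusted p = 0.401; 3 members and 527 of all clones had an unadjusted p under 0.05). The SE of a single FSH minus LH difference had a median of 0.15 over the members (0.107 to 0.376), and that of the change between the stages a median of 0.21. A difference of 0.52 in stage III was not called, so the absence of calls does not show that the hormones acted alike. The -0.69 in stage I-II was not called either. It belonged to 1rt31e04_c_c02, above background on 0 of 6 FSH and 0 of 6 LH arrays of that stage.

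The members were unevenly placed on the membrane, in regions singled out here after their counts were seen. The membrane holds 64 blocks of spots, 16 across and 4 down. The position of each clone was inferred by matching its values to those of the scanner, and 40 of 43 members fitted the order of clone IDs along the print. That order uses no values, but the positions of the members and of the neighbouring clones in this check were matched by values. Block column 1 held 9 of 23 III-down clones (39.1%), 0 of 20 III-up clones and 5.69% of all clones. A single block of that column held 6 III-down clones and 1.68% of all clones. Block columns 13 to 16 held 12 of 20 III-up clones (60.0%), 2 of 23 III-down clones (8.7%) and 25.5% of all clones.

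The level of all clones moved with place too. In block column 1 the median stage III minus stage I-II difference of all clones was -0.207 with FSH, 0.053 with LH, -0.09 in Ctrl cultures and 0.133 at T0. In block column 16 it was 0.00 with FSH, 0.081 with LH, -0.132 in Ctrl cultures and -0.32 at T0. Without stage III T0 replicate 6 the T0 medians were -0.015 in column 1 and -0.176 in column 16, and without any other T0 array they were 0.1 to 0.217 in column 1 and -0.422 to -0.284 in column 16. The column 1 median at T0 thus rested on that array. With equal block medians all 23 III-down and all 20 III-up clones kept responses of opposite sign. The rule had chosen them for responses of at least 0.4 in size on these same arrays, so nothing is read from the kept signs. Applied to the values with equal block medians, the rule gave 21 III-down and 19 III-up clones, of which 10 and 5 were among the members. The median of the stage III response minus the stage I-II response was then -0.98, in place of -1.08, for the III-down clones and 1.03, in place of 1.16, for the III-up clones.

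**Figure D4:**
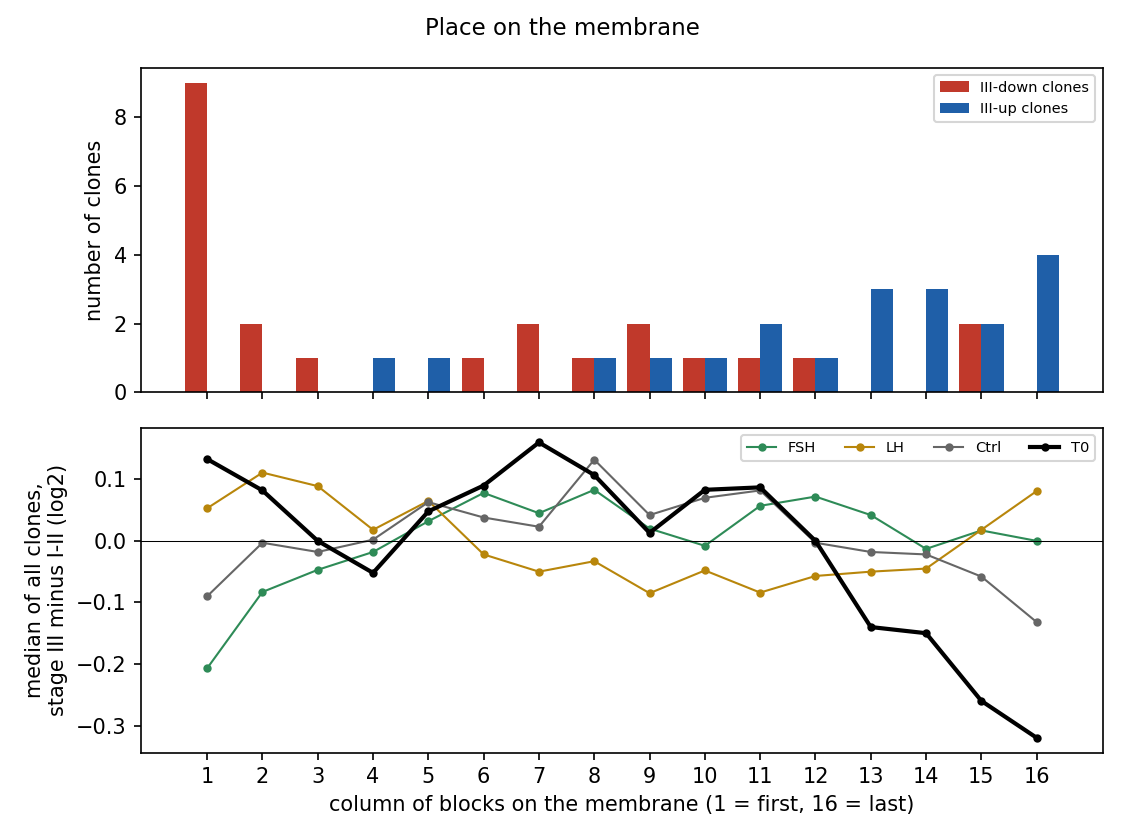
Top, number of III-down and III-up clones in each of the 16 columns of blocks on the membrane. Bottom, median over all clones of each column of stage III minus stage I-II (log2) in FSH, LH and Ctrl cultures and at T0. Column 1 holds 9 III-down clones and column 16 holds 4 III-up clones, where the T0 medians of all clones are 0.133 and -0.32 (-0.015 and -0.176 without stage III T0 replicate 6).

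Clones touching a member on the membrane differed in the same direction more often than not. Their median response in stage III minus that in stage I-II was -0.42 around the III-down clones, with the member's sign around 20 of 23, and 0.35 around the III-up clones, with the member's sign around 15 of 20. Around all clones, which are of both signs, the median was -0.005 and the median size 0.165, and the sign matched for 65.6%. Clones of the same block that did not touch the member had medians of -0.12 and 0.14. The part of membrane place and of neighbouring spots in the choice of members was not tested beyond these values.

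Most members were bright enough to be measured on every array. A spot over 4 times brighter touched 11 III-down clones (47.8%), 7 III-up clones (35.0%) and 52.9% of all clones. The members were above background on all 42 arrays in 13 of 23 and 15 of 20 cases, beside 51.9% of all clones, and 3 and 2 of them were above it on 5 arrays or fewer. The median SD within groups was 0.28 in the III-down clones and 0.26 in the III-up clones, beside 0.25 for all clones. On the scanner's image signal at the matched positions, 22 of 23 III-down and 19 of 20 III-up clones kept responses of opposite sign. The exceptions were the III-down clone tcay0022.d.22 and the III-up clone tcbk0016.j.18. The positions were matched on the same values that chose the members, so the image signal is no independent repeat. The median level over the III-down clones was 7.53 in stage III Ctrl cultures and 8.08 at stage III T0, and 7.47 in stage I-II Ctrl cultures and 6.88 at stage I-II T0. Over the III-up clones it was 7.69 in stage III Ctrl cultures and 7.18 at stage III T0, and 8.03 in stage I-II Ctrl cultures and 8.62 at stage I-II T0, where the median clone of each array had 7.15 to 7.17.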

How the data were processed

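Each sample was hybridised alone to 1 nylon membrane with 33P-labelled cDNA, per the labels. The authors deposited 1 AGScan export per array, per the file headers, with spot intensity on a linear scale and no background column, and a table of log2 values for the series. How that table was normalized is not stated in the labels or headers. Of its 9216 rows, 8175 held values, and the column medians were 7.15 to 7.17. The members are defined in that table, so it was the main source and was used as deposited. The members and lists were chosen with earlier results of these data known. A model with 8 group means was fitted to all 8175 clones (limma 3.58.1, R 4.3.3; lmFit and eBayes), with two-sided p-values adjusted by Benjamini-Hochberg within each comparison and called under 0.05. On data simulated for the stage comparison in FSH cultures over 8175 clones, 54% of changes of 0.5 (log2) and 98% of changes of 1 were recovered, with 100 clones changed at each size and 10 false calls.

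Table rows were matched to scanner positions by minimising the squared difference of their profiles over the arrays; 93.4% were also the nearest position, and 94.7% of clones fitted the order of clone IDs within 2 positions of the median shift of 20 clones on either side. A spot was above background when its intensity passed the median of 1 control position per block by 3 scaled median absolute deviations. The number of arrays limits the precision. The assembly table USDA_OmykA_1.1 matched 0 clone IDs, so the gene and cell marker lists could not be tested and no sequence is shown. The planned rule named more clones per direction; since no clone has a gene name, the text names the 2 with the widest difference of responses in each direction and, per tested comparison, up to 2 called higher and 2 called lower by size of change. Python 3.11.15, pandas 2.3.3, NumPy 2.4.6, SciPy 1.17.1 and matplotlib 3.10.9 were used.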

Additional observations from a re-analysis of the deposited data

Results flagged for a closer look

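Single arrays stood apart from the rest of their group in 4 of 54 groups of 6 arrays examined over the 9 clones named by the rule. The criterion was Dixon's, the gap to the nearest array over the range of the group, at the 95% level. Its rate of about 1 in 20 holds for groups not chosen by their values. The clones were chosen by theirs, Ctrl arrays among them, so nothing is read from the count. The III-up clone 1rt101f15_b_c08 had 6.97 on stage III LH replicate 67, and the nearest other array of that group had 7.55. The III-down clone 1rt128j01_b_e01 had 8.77 on stage III Ctrl replicate 58, next to 9.07. The III-up clone tcac0006.d.07 had 7.84 on stage I-II Ctrl replicate 20, next to 8.11, and the III-down clone tcba0018.e.18 had 7.55 on stage I-II FSH replicate 30, next to 7.39. T0 groups of 3 arrays were not examined in this way.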

How the results depend on the processing

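The number of members moved with the threshold: 55 III-down and 61 III-up clones at 0.3, and 7 and 8 at 0.5. Without the hormone bound 34 III-up clones met the rule, and 26 III-down clones. The scanner's image signal gave 15 III-down clones, 11 of them shared with the 23, and 14 III-up clones, 8 of them shared with the 20. Clones above the median level numbered 15 in either direction, and group medians gave 20 III-down clones (12 shared) and 22 III-up clones (8 shared). Of 2 settings chosen after seeing the data, leaving out clones that touch a spot over 4 times brighter left 12 and 13, and equal block medians gave 21 and 19, of which 10 and 5 were shared. Leaving out 1 array at a time gave 18 to 29 III-down and 18 to 28 III-up clones. Without stage III T0 replicate 6 the counts were 20 and 22, of which 16 and 12 were shared. Without stage I-II T0 replicate 2 they were 25 and 22, of which 21 and 15 were shared. Without stage III Ctrl replicate 57 they were 18 and 21, of which 16 and 17 were shared.

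The count of members differing between stages with FSH was 7, 12 with equal block medians (18.3% of all clones then) and 5 to 7 with 1 array left out. With LH it was 3, 6 on the image signal (16.7% of all clones then), 11 with equal block medians (19.4%) and 2 to 4 with 1 array left out. FSH minus LH in stage III gave 0 calls, 1 on the image signal (0.489% of all clones then), 3 with equal block medians (0.893%), and 0 to 1 with 1 array left out, the 1 being without stage III LH replicate 67; FSH minus LH in stage I-II and its change between the stages gave 0 under every such omission. No share of all clones is given for the fits with 1 array left out, so nothing is read from those counts. The cause of these moves was not tested. No sign of a named call turned under any setting run. Array number and background limit the dimmest members. No paired analysis was possible because no replicate number is shared between groups.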
